A study of Homo sapiens with 6 samples.

Results

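The genes described here are 50 genes of the mitotic spindle and of chromosome segregation. They were chosen by symbol from knowledge of mitosis, with earlier results of these data known. The array reads each locus through a set of probes called a transcript cluster, and a cluster stood for a gene where the platform annotation gave it exactly 1 symbol. By that rule 49 of the 50 genes were measured, out of 18417 genes on the array. The gene left out was CENPA, the histone variant that marks centromeres, whose cluster also carries another gene's symbol. BIRC5 had 2 such clusters and the brighter stood for it. The other 48 had 1 each.

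The cells were MDA-MB-231, an established line of human breast cancer without hormone receptors or HER2 amplification, grown below confluence. In the selamectin group they received 1 µM selamectin, a macrocyclic lactone antiparasitic of the avermectin family, for 24 h. The control arrays are titled untreated, while the protocol names a vehicle, and the labels do not settle which of these the control cells were given. No genotype differed between the groups, and there were 3 arrays of each from replicates that the design text calls independent. Values are log2 expression values as deposited, and a difference of 1 is a doubling.

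In mitosis the cyclin B kinase CDK1 starts chromosome condensation and spindle assembly, kinetochores attach the chromosomes to microtubules, and the spindle checkpoint holds the anaphase promoting complex in check until every kinetochore is attached. The complex then tags securin and cyclin B for destruction, which frees separase to cut cohesin, and the cell divides at the central spindle. Many of these genes are transcribed late in the cell cycle through promoters that bind the DREAM complex, MYBL2 and FOXM1. Their transcripts therefore follow the share of cells in that part of the cycle. In RNA from a whole culture, fewer cells in that part of the cycle and less RNA per cell cannot be told apart.

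The promoters are shown because many members hold short sequences that the selection by symbol did not search for. Many members are known late cell cycle genes, so the shares below are not independent of how the list was chosen. A pair of elements was searched on both strands in the 300-base windows of the RefSeq promoter table (GRCh38.p14), which run from 250 bases before each gene start to 50 after it. The cell cycle genes homology region, CHR, was searched as TTTGAA, as its reverse complement TTCAAA and as the palindrome TTCGAA. The CCAAT box was searched as CCAAT and, on the other strand, ATTGG. No match of one element overlaps the letters of the other in the 6 stretches printed here. Of the measured members, 41 matched the table by symbol. A CHR match was present for 32 of the 41 (78.0%), where 19.5% of all 27305 genes in the table and 16.4% of its 35116 windows held it. A CCAAT match was present for 33 (80.5%), against 39.7% of all genes. Both were present for 26 (63.4%), against 7.85%. Of 28 replication genes in the table, set beside the members as the most alike gene group, 2 (7.14%) held a CHR match and 19 (67.9%) a CCAAT match. Of 130 other genes of mitosis and its regulation in the table, 58 (44.6%) held a CHR match and 76 (58.5%) a CCAAT match, and 34 (26.2%) held both. The matches were thus also frequent outside the members. The counts describe letters in a window and not bound sites.

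The 200 bases before the start are printed for 4 members with lower means and 2 with higher means after selamectin, the ones with the smallest p of each kind among members with a single start in the table. Capitals mark the CHR and CCAAT matches. The stretch for TOP2A lies at chr17:40417897-40418096, minus strand, BUB1 at chr2:110678064-110678263, minus strand, and DLGAP5 at chr14:55191586-55191785, minus strand. That for KIF14 lies at chr1:200620752-200620951, minus strand, PLK1 at chr16:23678689-23678888, plus strand, and CDC20 at chr1:43358781-43358980, plus strand.
TOP2A: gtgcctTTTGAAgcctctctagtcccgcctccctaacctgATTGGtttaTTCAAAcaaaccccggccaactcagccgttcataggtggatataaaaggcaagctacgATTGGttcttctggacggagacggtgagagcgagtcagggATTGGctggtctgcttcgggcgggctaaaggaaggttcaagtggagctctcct
BUB1: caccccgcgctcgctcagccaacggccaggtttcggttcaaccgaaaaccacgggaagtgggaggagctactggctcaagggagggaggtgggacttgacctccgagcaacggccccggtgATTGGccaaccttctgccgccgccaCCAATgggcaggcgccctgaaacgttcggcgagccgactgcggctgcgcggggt
DLGAP5: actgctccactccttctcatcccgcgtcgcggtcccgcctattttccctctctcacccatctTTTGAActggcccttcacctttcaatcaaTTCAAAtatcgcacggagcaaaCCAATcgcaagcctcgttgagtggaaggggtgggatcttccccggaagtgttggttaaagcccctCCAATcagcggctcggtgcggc
KIF14: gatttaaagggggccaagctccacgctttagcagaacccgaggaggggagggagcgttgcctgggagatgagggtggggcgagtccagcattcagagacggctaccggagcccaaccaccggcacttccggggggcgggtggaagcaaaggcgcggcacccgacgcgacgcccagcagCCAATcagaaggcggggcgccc
PLK1: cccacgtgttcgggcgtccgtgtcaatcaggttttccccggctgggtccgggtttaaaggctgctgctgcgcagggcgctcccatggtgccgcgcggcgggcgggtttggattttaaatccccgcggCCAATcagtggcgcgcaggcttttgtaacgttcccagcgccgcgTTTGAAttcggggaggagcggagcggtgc
CDC20: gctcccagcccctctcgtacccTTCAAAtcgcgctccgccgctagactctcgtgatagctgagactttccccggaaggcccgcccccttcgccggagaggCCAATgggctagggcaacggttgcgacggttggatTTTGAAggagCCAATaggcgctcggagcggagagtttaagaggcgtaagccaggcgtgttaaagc
TOP2A, DLGAP5 and CDC20 each show 2 CHR matches here and PLK1 shows 1, with 23 bases between it and the start. BUB1 and KIF14 show none in these bases and have 1 past the start, outside the printed stretch. All 6 show at least 1 CCAAT match, and TOP2A shows 3. The elements were thus present in members whose means were lower and in members whose means were higher. Over all 41 members in the table, the median log2 change was -0.09 for the 32 with a CHR match and -0.08 for the 9 without.

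Selamectin was followed by small differences in mitotic transcripts, and most of these genes did not pass the test. TOP2A, the topoisomerase that untangles chromosomes before they part, was the only member called lower (limma, adjusted p under 0.05 over all genes), and none was called higher (3 members were higher at an unadjusted p under 0.05). That is 2.04% of the members lower, where 2.28% of all 18417 genes were called lower, 2.41% higher and 4.69% in either direction. The share of members called lower is thus near that background. With none called higher, the share in either direction, also 2.04%, lies below 4.69%, and this difference was not tested. All 49 members are among the brighter 9208 genes. When those genes alone were fitted, 3 of the 49 members passed, and 10.2% of the 9208 did. The largest estimates were 1.29-fold lower for PTTG1 (securin), 1.27-fold lower for TOP2A and 1.27-fold higher for FOXM1, the transcription factor of late cell cycle genes. The 95% interval of the log2 change, not adjusted for the number of genes, lay inside a 1.5-fold change in either direction for all 49 members, as it did for 91.6% of all genes.

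The members leaned lower more often than genes did in general. The log2 change was below 0 for 33 of 49 members (67.3%), where it was below 0 for 37% of all genes. The median change was -0.08 for the members and 0.04 for all genes. Some other mitotic lists leaned lower too, so the lean was not particular to the members. Of 146 other mitotic genes, 47.9% were below 0. Among them the spindle and centrosome median was -0.08, checkpoint -0.14, cytokinesis -0.07, and condensin and cohesin -0.06. The other lists had medians of 0.07 (anaphase promoting complex), 0.03 (kinetochore), 0.05 (transcription factors) and 0.001 (entry and exit regulators). At an unadjusted p under 0.05 in limma, 8 members were lower (16.3%, against 8.21% of all genes) and 3 were higher (6.12%, against 11.7%). The 8 became 5 without untreated array 3, 14 with a second quantile normalization and 17 with array weights, and the 3 became 1 without untreated array 1 or with that normalization. All 3 selamectin arrays lay below all 3 untreated arrays for 9 members (18.4%), against 9.3% of all genes, and above them for 3 (6.12%), against 16%. These shares describe the list and carry no test, because the members were chosen with earlier results known and vary together on an array. All 49 members lie in the brighter 50% of genes, and the shares of all genes were not matched for brightness.

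**Figure D1:**
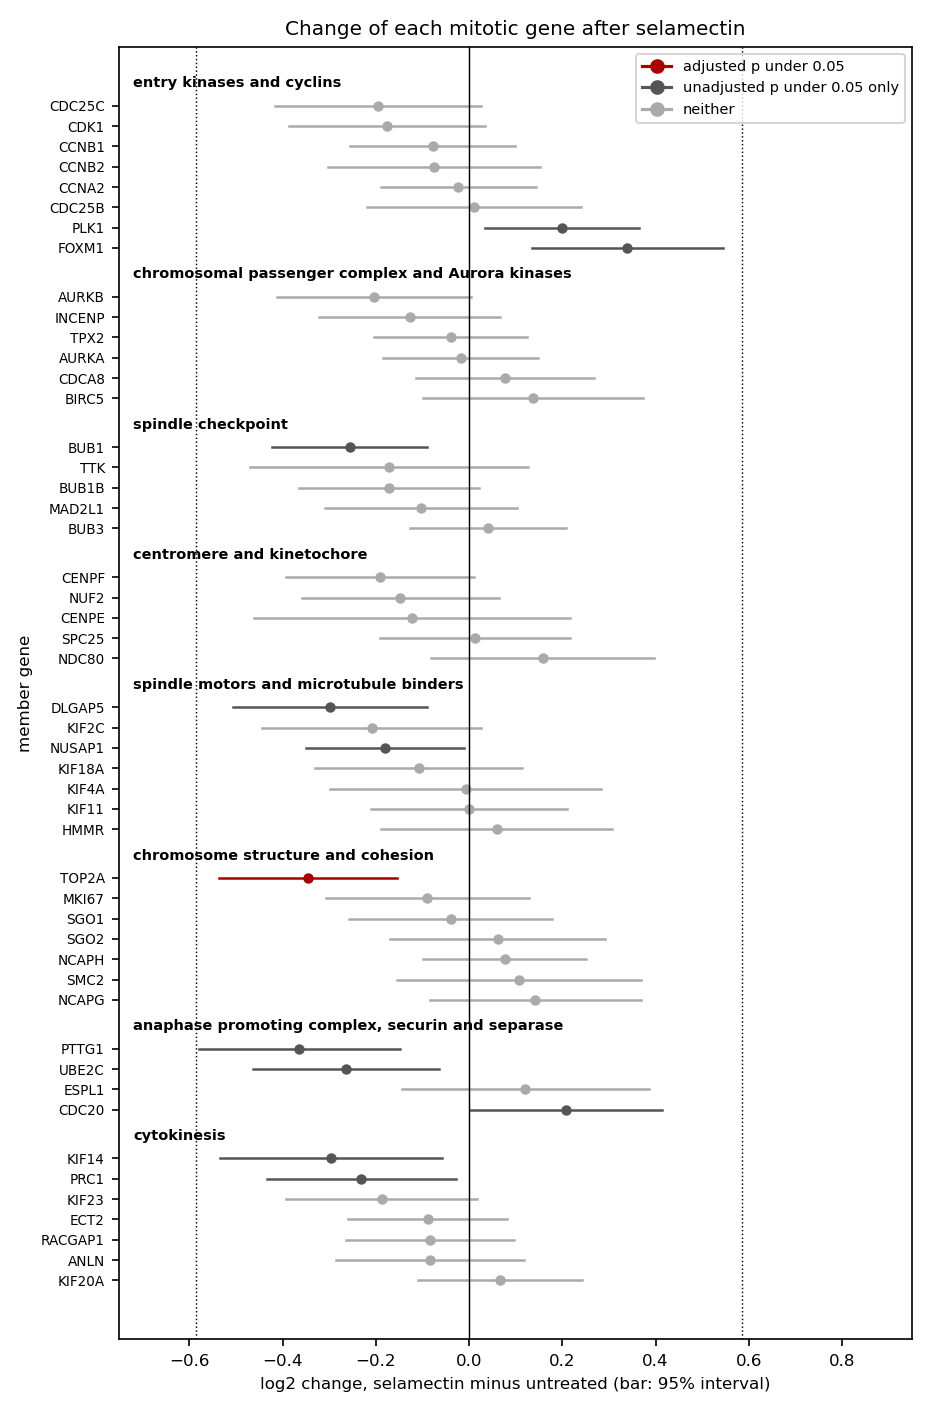
Log2 change after selamectin for each of the 49 measured mitotic genes, ordered within its role; points are limma estimates from 3 arrays per group, bars are 95% intervals, and dotted lines mark a 1.5-fold change. TOP2A is the single gene past an adjusted p of 0.05, and every interval lies between the dotted lines.

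Among the kinases, cyclins and phosphatases of mitotic entry, listed together with the transcription factor FOXM1, 8 members were measured and none passed. The median log2 change was -0.05. CDK1, the kinase that drives entry, had log2 values of 11.38, 11.21 and 11.35 on the untreated arrays and 11.30, 11.04 and 11.07 on the selamectin arrays. Selamectin array 1 lay among the untreated values and arrays 2 and 3 were below them, and the change was -0.18 (limma adjusted p = 0.34). CCNB1, the main mitotic cyclin, stood at 11.46, 11.35 and 11.48 untreated and at 11.28, 11.41 and 11.36 with selamectin, so the groups overlapped (change -0.08). CCNB2 stood at -0.08 and CCNA2, the cyclin of S phase and early mitosis, at -0.02, each with a sign that turned under 1 alternative setting. CDC25C, a phosphatase that activates CDK1, was lower on all selamectin arrays at -0.20 (adjusted p = 0.31), and CDC25B, of the same family, stood at 0.01.

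FOXM1 and PLK1 were the members of this role at an unadjusted p under 0.05, both with higher means after selamectin. FOXM1 had log2 values of 11.16, 11.36 and 11.39 untreated and 11.52, 11.66 and 11.75 with selamectin. Every selamectin array was above every untreated array, and the change was 0.34 ± 0.093 (SE, n = 3 per group, limma adjusted p = 0.064). PLK1, a kinase of centrosome maturation and spindle assembly, stood at 12.45, 12.68 and 12.61 untreated and at 12.80, 12.76 and 12.78 with selamectin. Its selamectin values were close together and above all untreated values, of which array 1 was the lowest (change 0.20, adjusted p = 0.17). Neither passed the adjusted threshold. FOXM1 passed it in 2 of 16 alternative settings and its estimate stayed above 0 in the 9 of them that can move it, with an adjusted p over the 16 between 0.0365 and 0.224.

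The Aurora kinases and the chromosomal passenger complex, which corrects wrong attachments and guides cytokinesis, held 6 members and no call, with a median of -0.03. AURKA, the spindle pole kinase, had values of 11.60, 11.54 and 11.57 untreated and 11.61, 11.53 and 11.52 with selamectin. The ranges were nearly the same and the change was -0.02, with a 95% interval from -0.18 to 0.15. TPX2, which activates AURKA on the spindle, stood at -0.04. AURKB, the passenger kinase, had values of 11.11, 11.28 and 11.20 untreated and 11.03, 11.11 and 10.85 with selamectin. All selamectin arrays were lower, array 3 the most and array 2 by the least (change -0.20, adjusted p = 0.26). INCENP, the scaffold of the complex, had values of 10.37, 10.26 and 10.35 against 10.20, 10.11 and 10.28, and selamectin array 3 lay within the untreated range (change -0.13). CDCA8, the borealin subunit, stood at 0.08, and BIRC5, survivin, at 0.14 with a dimmer cluster at 0.23.

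In the spindle checkpoint, 5 members had a median of -0.17, the lowest median of the 8 roles, and none passed. BUB1, a kinase that recruits checkpoint proteins to kinetochores, had values of 11.36, 11.30 and 11.36 untreated and 11.09, 11.08 and 11.08 with selamectin. The selamectin values had an SD of 0.0089 and all lay below the untreated ones, whose SD was 0.033. The change was -0.26 ± 0.076 (SE, n = 3 per group, limma adjusted p = 0.082), and the estimate stayed below 0 in the 9 alternative settings that can move it. MAD2L1, which inhibits CDC20 at the checkpoint, had values of 10.34, 10.20 and 10.32 against 10.16, 10.08 and 10.30, with selamectin array 3 at the untreated level (change -0.10). BUB1B, a subunit of the mitotic checkpoint complex, stood at -0.17, TTK, the kinase at the top of the checkpoint, at -0.17, and BUB3 at 0.04. TTK varied more than most members, with an SD of 0.22 in each group.

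At the centromere and kinetochore 5 of 6 listed members were measured, with no call and a median of -0.12. CENPF, a large kinetochore protein made late in the cycle, had values of 12.15, 11.96 and 12.14 untreated and 11.95, 11.73 and 11.98 with selamectin. Selamectin array 2 was the lowest, and selamectin array 3 lay just above untreated array 2, so the groups overlapped (change -0.19, adjusted p = 0.28). CENPE, a kinetochore motor, stood at -0.12 with a selamectin SD of 0.29. The NDC80 complex grips the microtubule end. Its subunits stood at 0.16 for NDC80, -0.15 for NUF2 and 0.01 for SPC25.

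Of the spindle motors and microtubule binders, 7 were measured, 6 of them below 0, and none passed. The median was -0.11. KIF11, the motor that pushes spindle poles apart, had values of 10.76, 10.66 and 10.87 untreated and 10.72, 10.67 and 10.89 with selamectin. The groups covered the same range and the log2 change was -0.0001, with an interval from -0.21 to 0.21. DLGAP5, which stabilizes the fibres that join kinetochores to the pole, had values of 11.41, 11.19 and 11.29 against 11.12, 10.87 and 10.999. All selamectin arrays were lower (change -0.30 ± 0.094, SE, limma adjusted p = 0.1). NUSAP1, a protein that bundles spindle microtubules near chromosomes, had values of 12.72, 12.61 and 12.61 against 12.57, 12.37 and 12.45, again all lower with selamectin (change -0.18, adjusted p = 0.22). The microtubule depolymerases KIF2C and KIF18A stood at -0.21 and -0.11, the chromokinesin KIF4A at -0.01 and HMMR, a spindle pole protein, at 0.06.

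**Figure D2:**
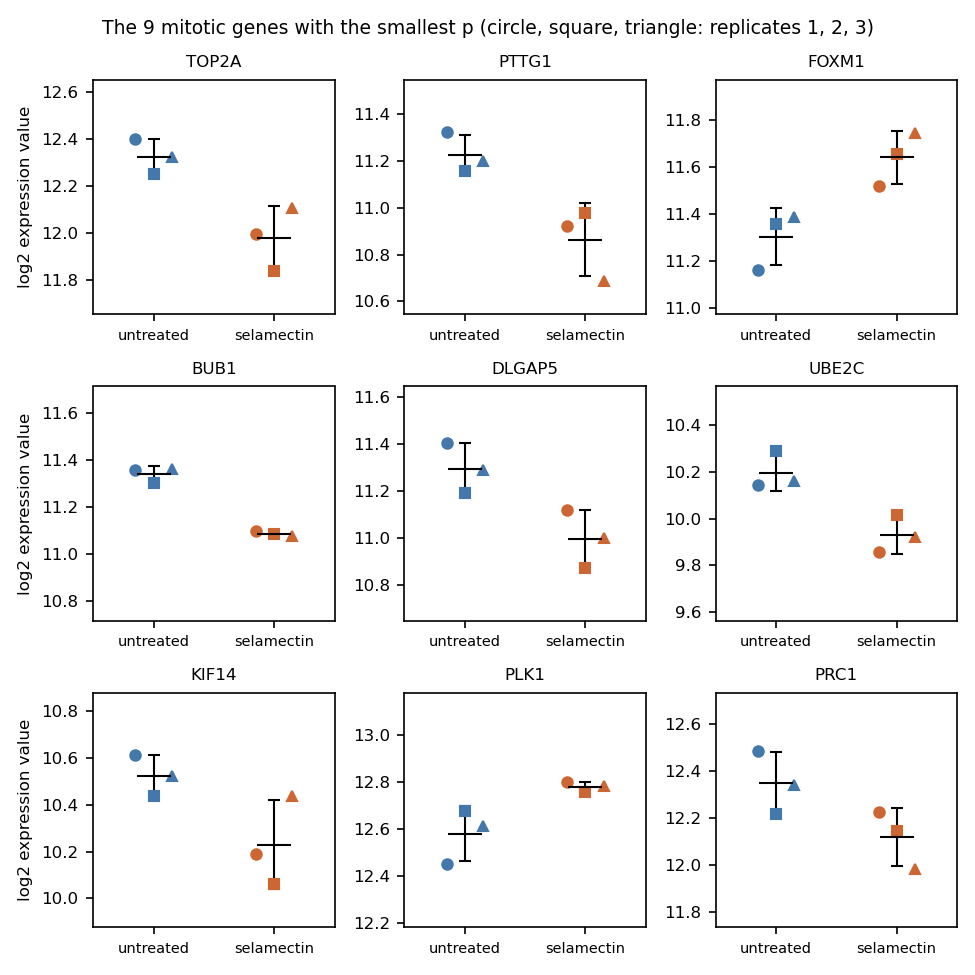
Log2 expression values on all 6 arrays for the 9 mitotic genes with the smallest limma p; points are arrays, horizontal bars are group means and error bars are SDs of 3 arrays, and every panel spans 1 log2 unit. TOP2A falls from 12.40, 12.25 and 12.32 to 11.99, 11.84 and 12.11, while FOXM1 and PLK1 lie higher on all selamectin arrays without passing the adjusted threshold.

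Estimates for the chromosome structure genes lay on both sides of 0, and TOP2A fell. TOP2A had log2 values of 12.40, 12.25 and 12.32 on the untreated arrays and 11.99, 11.84 and 12.11 on the selamectin arrays. All selamectin arrays were lower, array 2 the most and array 3 the least, and the mean went from 12.32 ± 0.077 to 11.98 ± 0.14 (SD, n = 3). The change was -0.34 ± 0.087 (SE), or 1.27-fold lower, with a limma adjusted p = 0.048. That call sits at the threshold and was lost when any single array other than selamectin array 3 was dropped. Dropping untreated array 1, 2 or 3 gave an adjusted p of 0.174, 0.0636 or 0.154, and dropping selamectin array 1, 2 or 3 gave 0.0936, 0.194 or 0.0147. Centring arrays on their medians (0.0683), fitting with no eBayes trend (0.0609), blocking on the replicate number (0.0581) and fitting all clusters (0.135) also ended it, while the estimate stayed below 0 in the 9 settings that can move it.

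MKI67, the proliferation antigen that coats mitotic chromosomes, did not pass. Its values were 11.59, 11.42 and 11.56 untreated and 11.36, 11.32 and 11.63 with selamectin. Selamectin arrays 1 and 2 were below the untreated arrays and array 3 was above all of them (change -0.09, interval -0.31 to 0.13). The condensin genes had positive estimates, at 0.11 for the SMC2 core subunit, 0.14 for NCAPG and 0.08 for NCAPH. None of the 3 passed, and NCAPH alone was higher on every selamectin array. The shugoshins, which guard centromeric cohesin, stood at -0.04 for SGO1 and 0.06 for SGO2. The median of the 7 members in this role was 0.06, the only positive median among the roles.

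The genes of the switch to anaphase held 2 of the larger negative estimates and a higher one. PTTG1, securin, the inhibitor of separase, had values of 11.32, 11.16 and 11.20 untreated and 10.92, 10.98 and 10.69 with selamectin. All selamectin arrays were lower, array 3 the most. The change was -0.36 ± 0.098 (SE, n = 3 per group), the largest among the members, with a limma adjusted p = 0.06 that lay between 0.0153 and 0.214 over 16 alternative settings and passed in 4. Humans have near copies of PTTG1, so its cluster may not be specific. UBE2C, the ubiquitin-conjugating enzyme of the anaphase promoting complex, had values of 10.14, 10.29 and 10.16 against 9.86, 10.02 and 9.92, all lower with selamectin (change -0.26, adjusted p = 0.13). CDC20, the activator of the complex, had values of 11.77, 12.08 and 11.86 against 12.01, 12.14 and 12.18. Untreated array 2 reached the selamectin values, so the groups overlapped (change 0.21, adjusted p = 0.25). ESPL1, separase itself, had values of 9.79, 9.78 and 9.93 against 9.77, 9.87 and 10.22. Its change of 0.12 was -0.01 without selamectin array 3, the highest of the 6.

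The cytokinesis genes leaned lower, with 6 of 7 below 0, a median of -0.09 and no call. KIF14, a motor of the midbody, had values of 10.61, 10.44 and 10.52 untreated and 10.19, 10.06 and 10.44 with selamectin. Selamectin array 3 lay just below untreated array 2, and the other selamectin arrays were lower (change -0.30, adjusted p = 0.15). Without selamectin array 3, KIF14 changed by -0.40 and passed (limma adjusted p = 0.0306). PRC1, which bundles the central spindle, had values of 12.48, 12.22 and 12.34 against 12.22, 12.14 and 11.98, with selamectin array 1 just above the lowest untreated array (change -0.23, adjusted p = 0.19). KIF23, the motor of centralspindlin, had values of 11.90, 11.73 and 11.88 against 11.61, 11.53 and 11.81, with selamectin array 3 inside the untreated range (change -0.19). RACGAP1, its partner, stood at -0.08, ECT2, the activator of RhoA at the furrow, at -0.09, ANLN, anillin of the contractile ring, at -0.08, and KIF20A, a central spindle kinesin, at 0.07.

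Partners that act in 1 complex were compared with each other. The log2 difference between the genes of 8 pairs was taken on each array, and its change between groups was tested by an exact two-sided permutation test over the arrays. The smallest p that this exact permutation test allows with 3 arrays per group is 0.1, so no pair could pass 0.05. The pairs were picked by function with the gene values known. PTTG1 minus ESPL1 was 1.54, 1.37 and 1.27 on the untreated arrays and 1.16, 1.11 and 0.46 on the selamectin arrays. The groups did not overlap and the difference changed by -0.48 (exact p = 0.1, 0.2 after Benjamini-Hochberg over 8 pairs). CDC20 minus UBE2C was 1.63, 1.79 and 1.71 untreated and 2.15, 2.12 and 2.26 with selamectin, a change of 0.47 at the same p.

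The groups did not overlap for a further 2 pairs. NDC80 minus NUF2, the arms of a dimer, went from -0.50, -0.61 and -0.42 to -0.25, -0.20 and -0.17, a change of 0.31 (exact p = 0.1). AURKB minus BIRC5 went from 1.32, 1.51 and 1.36 to 1.09, 0.97 and 1.09, a change of -0.34 (exact p = 0.1). The remaining 4 pairs overlapped between groups: the difference changed by -0.10 for CDK1 minus CCNB1, 0.02 for AURKA minus TPX2, -0.04 for SMC2 minus NCAPG and -0.10 for KIF23 minus RACGAP1, with exact p between 0.4 and 0.7. How often other gene pairs fail to overlap was not computed. For single genes, all selamectin arrays lay below all untreated arrays in 9.3% and above them in 16% of all genes. Those shares are not a background for a difference between 2 genes. The values describe these arrays, and whether partners changed unequally was not settled by this test.

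**Figure D3:**
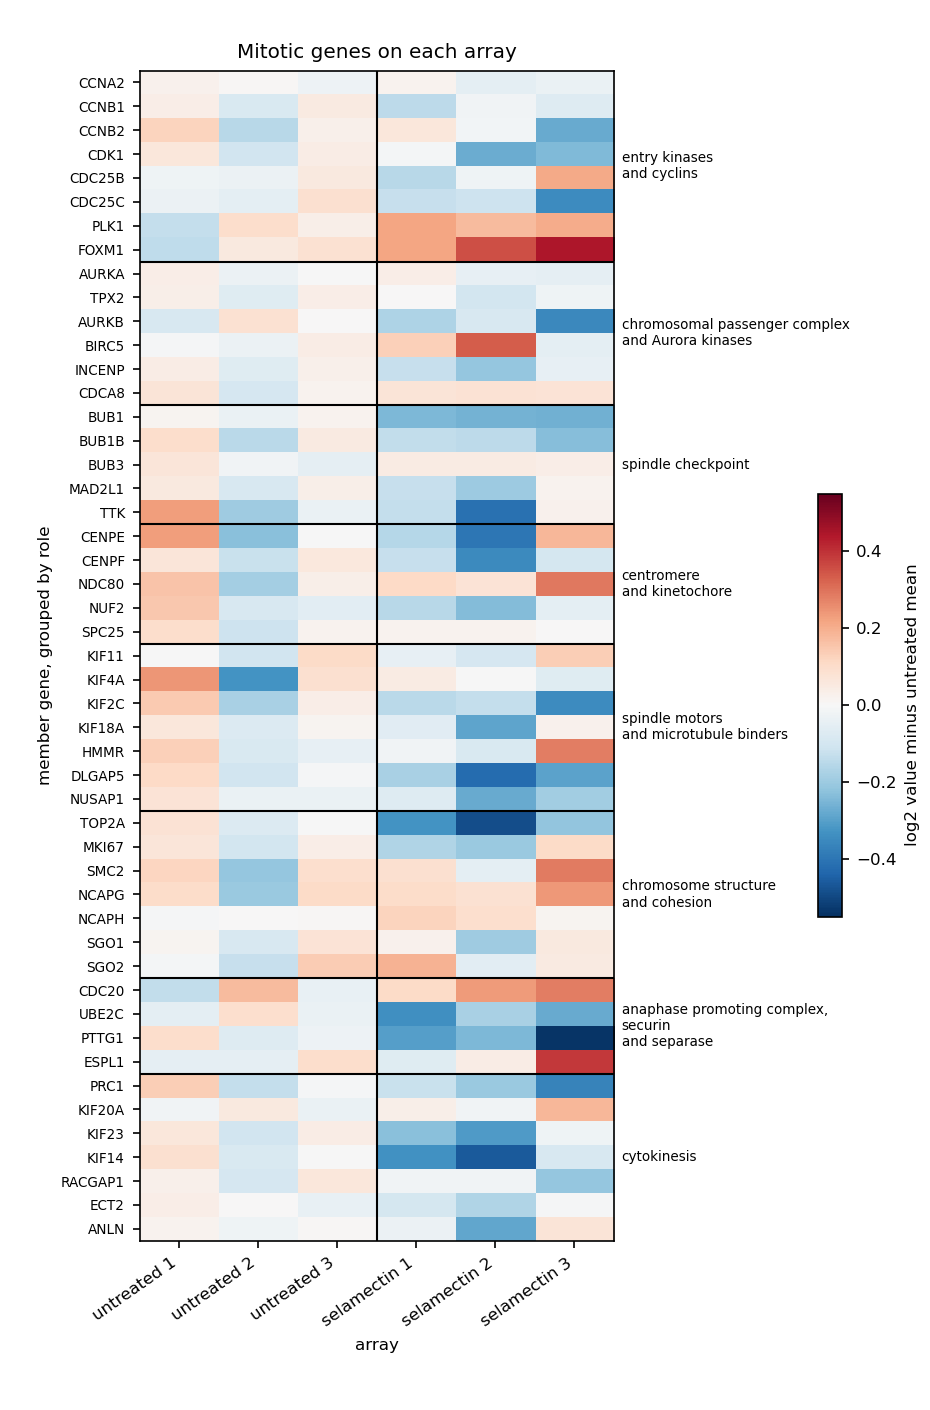
Each of the 49 mitotic genes on each of the 6 arrays, as the log2 value minus the gene's untreated mean; rows are grouped by role, red is higher and blue is lower. Untreated array 2 is blue for most rows among the untreated arrays, and selamectin array 3 differs from the other selamectin arrays in both directions.

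Single arrays moved many members at once. Untreated array 2 held the lowest untreated value for 38 of 49 members (77.6%), where it did so for 35.8% of all genes. Untreated array 1 held the highest for 30 (61.2%, against 25.9%). Among the selamectin arrays, array 2 was the lowest for 27 members (55.1%, against 23.8%) and array 3 the highest for 24 (49%, against 25.4%). Relative to the untreated mean of each gene, the median of the members was 0.06, -0.08 and 0.03 on the untreated arrays and -0.06, -0.10 and -0.02 on the selamectin arrays. Untreated array 2 thus lay below selamectin arrays 1 and 3, and the groups overlapped in this median.

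The median change of the members followed which array was left out. It was -0.13 when untreated array 2 was dropped and -0.02 when selamectin array 2 was, and stayed below 0 in the 9 settings that can move it. What sets untreated array 2 apart was not tested, and no scan date, slide or RNA quality value was used here. On that array the median of the 146 other mitotic genes was also -0.08 and that of the replication genes -0.08, while that of all genes was 0.01.

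**Figure D4:**
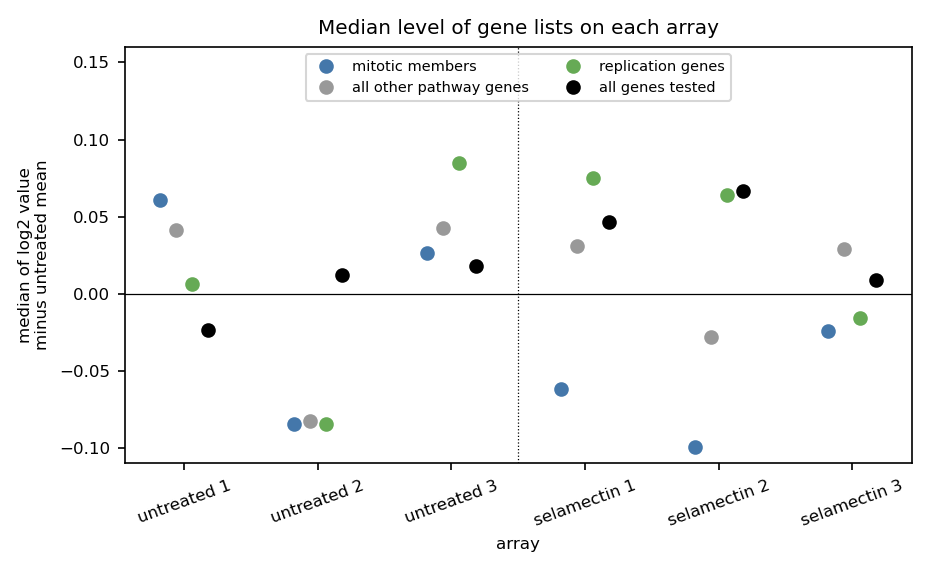
Median, on each array, of the log2 value minus the gene's untreated mean, for the 49 mitotic members, 146 other mitotic genes, 32 replication genes and all 18417 genes tested. The members lie at -0.08 on untreated array 2 and between -0.10 and -0.02 on the selamectin arrays, so the groups overlap.

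Outside the members, 146 of 151 other listed genes of mitosis and its regulation were measured. Of these, 5 rose and 3 fell past the threshold in limma, beside 2.41% and 2.28% of all genes, and their median change was 0.01. Of the 5 that rose, 4 are subunits of the anaphase promoting complex. They are 23.5% of the 17 genes listed for the complex and its regulators, beside 2.41% of all genes. These 17 had a median of 0.07, with 13 estimates above 0 and 4 below, and none was called lower. ANAPC15, which helps turn the checkpoint complex over, had log2 values of 10.99, 11.13 and 11.14 untreated and 11.76, 11.73 and 11.41 with selamectin. All selamectin arrays were higher, array 3 the least (change 0.55 ± 0.10 SE, 1.46-fold, adjusted p = 0.017). ANAPC13 rose by 0.47 (limma adjusted p = 0.044), CDC16 by 0.42 (0.047) and ANAPC7 by 0.41 (0.025). ANAPC7 had values of 10.98, 10.93 and 11.15 against 11.49, 11.42 and 11.39, with no overlap. The ANAPC15 call was lost when untreated array 1, untreated array 3 or selamectin array 2 was dropped, the ANAPC13 call also without selamectin array 1, and those of CDC16 and ANAPC7 without any array but selamectin array 3. With all transcript clusters none of these 4 passed, and with the replicate block ANAPC15 alone did (limma adjusted p = 0.0368). ANAPC13 was also lost with a second quantile normalization (0.0547) and CDC16 with median-centred arrays (0.052). Among all 146 genes 0 rose when untreated array 1, untreated array 3 or selamectin array 2 was dropped. Dropping selamectin array 1 left 2 that rose, dropping untreated array 2 left 3, and dropping selamectin array 3 gave 8. Those that fell numbered 0 on dropping untreated array 1, 1 on dropping untreated array 3 or selamectin array 2, and 7 on dropping selamectin array 3.

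Among 29 further centromere and kinetochore genes, 1 rose and 1 fell (3.45% each, beside 2.41% and 2.28% of all genes). SKA3, a subunit of the complex that couples kinetochores to microtubule ends, had values of 10.04, 9.97 and 10.03 untreated and 10.46, 10.45 and 10.49 with selamectin. The arrays of each group lay close together and did not overlap, and the rise was 0.46 ± 0.083 (SE, limma adjusted p = 0.013), a call kept in 13 of 16 alternative settings and lost without untreated array 1, untreated array 3 or selamectin array 2. KNTC1, the ROD subunit that brings dynein to kinetochores, fell by 0.45 on the log2 scale (adjusted p = 0.034), from 10.43, 10.19 and 10.40 to 9.95, 9.74 and 9.97. That call was lost without untreated array 1 or 3, without selamectin array 1 or 2, and with all transcript clusters. CENPH, a subunit of the constitutive centromere network, stood at -0.57 with overlapping groups (adjusted p = 0.079).

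Regulators of late cell cycle transcription held 1 call, a lower one, among 17 genes (5.88%, beside 2.28% of all genes called lower). RBL2, the pocket protein p130 of the DREAM repressor complex, had values of 10.19, 10.19 and 10.15 untreated and 9.74, 9.61 and 9.51 with selamectin. All selamectin arrays were lower than any untreated array. The change was -0.55 ± 0.092 (SE), or 1.47-fold lower (limma adjusted p = 0.0097), and the call held in 15 of 16 alternative settings, missing without untreated array 1 (0.0521). E2F4, its partner in DREAM, stood at 0.37 (adjusted p = 0.069) and LIN52 of the same complex at -0.30 (0.12). For these 2 genes the groups did not overlap, and neither passed. In this list all selamectin arrays were lower for 2 genes, RBL2 and LIN52 (11.8%, against 9.3% of all genes). They were all higher for 2 (11.8%, against 16% of all genes), E2F4 and MYBL2. MYBL2 stood at 0.29 (limma adjusted p = 0.14).

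Of the remaining lists, cytokinesis held 1 call, a lower one, among 9 genes (11.1%, beside 2.28% of all genes called lower). CIT, the citron kinase of the midbody, fell by 0.45 on the log2 scale (limma adjusted p = 0.038), from 10.33, 10.03 and 10.31 to 9.83, 9.69 and 9.81. The CIT call was lost without untreated array 1 or 3, without selamectin array 1 or 2, and with median-centred arrays or all transcript clusters. In the same list SEPTIN9 stood at 0.26 and DEPDC1 at -0.33. No call was made in limma among 33 spindle and centrosome genes, 18 condensin and cohesin genes, 18 entry and exit regulators or 5 checkpoint genes. At an unadjusted p under 0.05 in limma, 4 spindle and centrosome genes were lower (12.1%) and 1 was higher (3.03%). For condensin and cohesin genes these counts were 2 (11.1%) and 3 (16.7%), and for entry and exit regulators 3 (16.7%) and 1 (5.56%). They were 0 and 0 for checkpoint genes. Over all genes 8.21% were lower and 11.7% higher. The smallest p among spindle genes belonged to ASPM, a spindle pole protein, at -0.37 (adjusted p = 0.069), TUBG1, the centrosomal gamma tubulin, at 0.25, and HAUS4 of the augmin complex at -0.33. Among condensin and cohesin genes they were NCAPD3 at -0.25, STAG1 at 0.38 and ESCO2 at 0.26. Among entry and exit regulators they were ENSA at 0.32 (adjusted p = 0.058), MASTL, the Greatwall kinase that acts on ENSA, at -0.29 (0.063), and CKS1B at -0.24. Among checkpoint genes they were MAD2L1BP at 0.22, NEK2 at -0.14 and TRIP13 at -0.14.

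**Figure D5:**
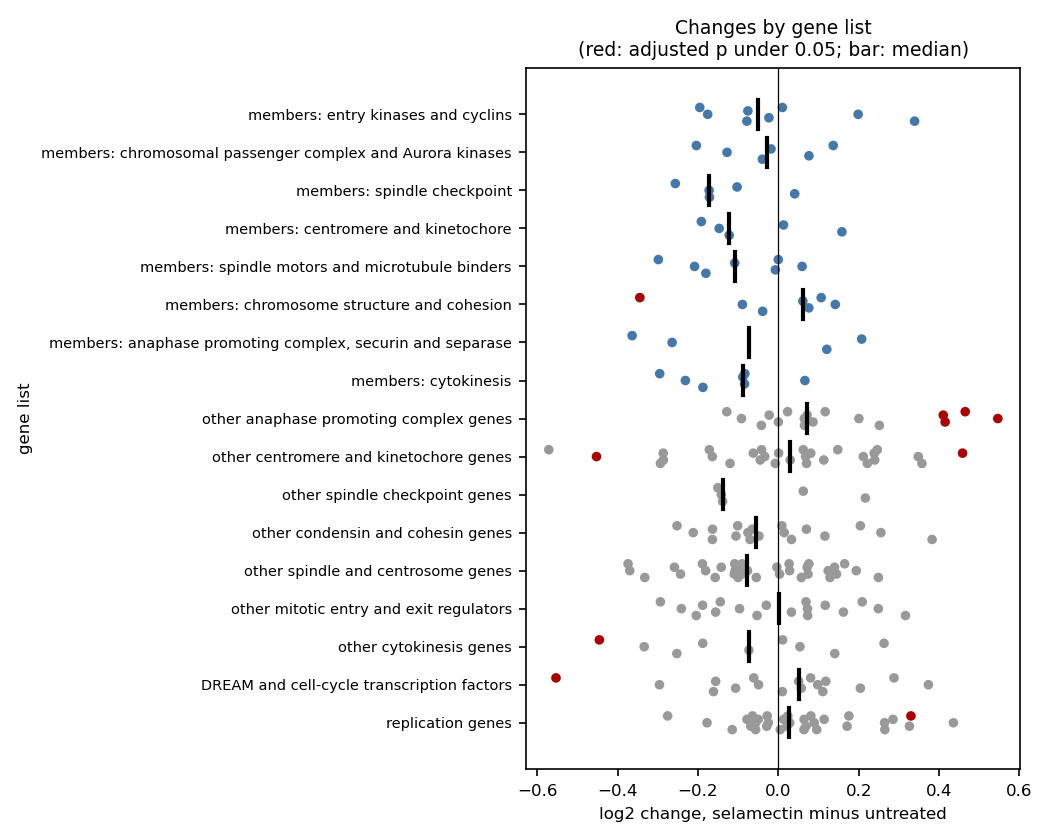
Log2 change of each measured gene by list, for the 8 roles of the mitotic members (blue) and 9 further lists (grey); points are genes, red points passed an adjusted p of 0.05 in limma and black bars are list medians. The red points to the right of 0.4 in the anaphase promoting complex list are ANAPC15, ANAPC13, CDC16 and ANAPC7.

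Replication genes, which act earlier in the cycle, were set beside the members. Of 32 measured, 1 rose and none fell in limma, and at an unadjusted p under 0.05 there were 6 higher (18.8%, against 11.7% of all genes) and 1 lower (3.12%, against 8.21%). The 1 that rose is 3.12%, beside 2.41% of all genes. Their median change was 0.03, near the 0.04 of all genes, and that of the mitotic members was -0.08. The replication median was -0.01 with a second quantile normalization and with array weights, and the difference between the lists was not tested. CDC6, the licensing factor that rose, had values of 11.32, 11.40 and 11.51 untreated and 11.71, 11.73 and 11.78 with selamectin (0.33, adjusted p = 0.043). The CDC6 call was lost without any one array, and with a second quantile normalization, the replicate block or all transcript clusters. UHRF1, a chromatin factor of replicating DNA, stood at 0.33 and CCNE2, cyclin E2, at 0.44, neither past the threshold.

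The arrays were set against markers of the labelled cells. Arrays of 1 group correlated with r from 0.9949 to 0.9971 over all genes, and arrays of different groups with r from 0.9913 to 0.9954. The mesenchymal marker VIM (vimentin) had log2 values between 12.63 and 12.94, and the epithelial marker CDH1 between 5.97 and 6.34. The lists as a whole did not split so cleanly. The luminal markers FOXA1 (9.69 to 9.80) and ERBB2 (8.94 to 9.28) lay above the mesenchymal marker FN1 (7.96 to 8.80). Probes of different genes are not on one scale and no detection calls were used, so presence or absence was not settled. In limma no leukocyte marker of 6 passed, and 0 had an unadjusted p below 0.05. Of 7 fibroblast markers PDGFRB rose by 0.34, and of 8 mesenchymal markers CD44 rose by 0.42. These single calls are 14.3% and 12.5% of their short lists, beside 2.41% of all genes called higher. At an unadjusted p below 0.05, 3 of the 8 mesenchymal markers were higher (37.5%, against 11.7% of all genes) and 1 was lower (12.5%, against 8.21%). The lower one was FN1, fibronectin, at -0.43 (limma adjusted p = 0.083) and lower on all selamectin arrays, as was TWIST1 at -0.26; both are named after their values were seen. Of 8 epithelial and luminal markers none passed, and 2 were lower at an unadjusted p below 0.05 (25%, against 8.21% of all genes). The marker calls were not repeated with single arrays left out.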

How the data were processed

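Expression was measured on whole-transcript arrays in 3 untreated and 3 selamectin samples, grouped by their titles. The deposited values are taken as log2 values made by RMA, which the submitters' processing notes name beside Affymetrix Expression Console and Transcriptome Analysis Console; the file states no log base. RMA as commonly run equalizes the arrays, so a shift of all genes in 1 group would be lost. A genome build was not given in the sources used here. Symbols came from the platform annotation, and 19460 of 33297 clusters had exactly 1. Where a gene had several clusters, the one with the highest mean stood for it.

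All 18417 genes were fitted with limma 3.58.1 in R 4.3.3 (lmFit, eBayes with trend) on 2 groups, selamectin minus untreated. Tests were two-sided and had no replicate block. P-values were adjusted over all genes by Benjamini-Hochberg, and 0.05 was the threshold. The median SE of a log2 change was 0.094; there is no read depth, and the number of arrays limits the precision. Nothing says that the replicates came from separate cultures beyond the design text's word independent, so p-values measure the spread between these arrays. The fit was tested on simulated data with planted changes larger than any member's estimate and noise drawn independently for each gene. That simulation gives no rate for changes as small as those of the members. The members and gene lists were chosen with earlier results of these data known. The naming rule gives every member's log2 change, and values on all 6 arrays for the 14 members with the smallest p and for a fixed set of 16; from other lists it takes genes past the threshold and the 3 with the smallest p. Alternatives covered normalization, centring, dim genes, eBayes, array weights, clusters, the block, single arrays and the threshold. Promoters came from RefSeq tables (GRCh38.p14).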

Additional observations from a re-analysis of the deposited data

How the results depend on the processing

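Of 16 alternative settings, 9 move the estimates of most members and 7 leave them as they are by construction, except that averaging clusters moves BIRC5. In the 9, 13 of 49 members changed sign, none of them called in any setting, such as KIF4A (-0.17 to 0.11) and CDC25B (-0.09 to 0.09). The count of members past the threshold and lower, 1 as reported, was 0 with median-centred arrays, no eBayes trend, the replicate block or all transcript clusters. It was 2 with a second quantile normalization or without the dimmest 25% or 50% of genes, 3 at an adjusted p under 0.10 and 8 with array weights. The count of members past the threshold and higher, 0 as reported, was 1 without the dimmest 50% of genes or at an adjusted p under 0.10, and 2 with array weights. Array weights gave untreated array 3 a weight of 5.11, against 0.447 to 1.22 for the other arrays, and 3286 genes of the whole array (17.8%) were then called instead of 864. With all transcript clusters 249 were. Leaving out 1 array at a time gave 0 to 2 members lower and 0 higher; the 2 were TOP2A and KIF14, without selamectin array 3.

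At an unadjusted p under 0.05, 8 members lower became 14 with a second quantile normalization and 17 with array weights, and ranged from 5 to 12 when 1 array was left out. The 3 members higher became 1 with a second quantile normalization, and 1 to 3 with 1 array left out. The 5 rises among other pathway genes became 1 with all transcript clusters, 2 with the replicate block, 9 at an adjusted p under 0.10 and 13 with array weights, and ranged from 0 to 8 with 1 array left out. The 3 falls became 1 with all transcript clusters, 5 with a second quantile normalization, 7 at an adjusted p under 0.10 and 21 with array weights, and ranged from 0 to 7. The median change of the members lay between -0.13 and -0.02 with 1 array left out. Fewer or more genes in the adjustment changes its size by construction; the cause of the other shifts was not tested.

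The replicate numbers showed no clear pairing of the samples over all genes, and whether arrays of the same number shared a batch was not tested. Array 2 held the lowest value of its group for 77.6% of members among untreated arrays and 55.1% among selamectin arrays. Deviations from the group means correlated at -0.011, 0.24 and -0.14 for numbers 1, 2 and 3, and a single one of the 3 was the best match of its array; the block lowered the calls over all genes from 864 to 650. Under the block 0 members passed.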

Other observations

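Over the 6 arrays, the genes outside the lists whose values were most like the mean of the members were TUT7 (Pearson r = 0.9971), HSP90B1 (0.9943) and NCOA2 (0.994). This is a description over 6 arrays, searched among all genes and with no test, and the arrays share their normalization.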
